A study of Mus musculus with 50 samples.

Results

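Osteopontin, encoded by Spp1, is a secreted phosphoprotein that binds integrins and CD44. In the liver it is known as a product of bile duct epithelium, and it is also made by scar-associated and lipid-associated macrophages and by activated stellate cells during fibrosis. Its expression responds to TGF-beta, Notch and inflammatory signalling, and matrix metalloproteinases cut the protein. Spp1 was 1 of the 1000 gene targets of an in situ hybridisation panel read by CosMx, an imaging instrument that counts single transcripts in a tissue section, together with 10 negative probes that match no transcript. RefSeq places the gene on mouse chromosome 5, from 104435111 to 104441053 of GRCm38.p6, where it is protein-coding. The deposited tables do not say which part of the transcript the probes bind.

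Livers came from 18-month-old mice. HIRA KO mice were HIRA fl/fl animals on the C57BL/6 background, and control mice were wild-type C57BL/6. Both groups had received AAV8-TBG-Cre when 6 months old and lived 12 months longer, so the floxed allele was the intended difference between them. TBG is a hepatocyte-specific promoter, and Cre was therefore meant to act in hepatocytes and not in biliary cells, macrophages or stromal cells. Hira is not a target of the panel, and its loss was not checked here. Sections of the median lobe, 5 µm thick, were imaged on 1 slide as 50 fields of view. The fields formed 6 tissue areas, 3 control and 3 HIRA KO, with 8 to 9 fields each. The control areas shared one slide column and the HIRA KO areas the other column, so genotype and slide side cannot be told apart. Each of 3 slide rows held 1 area of either group, and areas carry the number of their row. The study's design gives 3 biological replicates per group, but no label ties a field to a mouse, so replicates here are the tissue areas.

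After removal of 2467 segmented cells, 49665 cells were kept, 6801 to 10171 per area, with 718991 to 1542205 gene counts. HIRA KO areas held 10.8 ± 0.473 gene counts per 1000 px of cell area (SD, n = 3) and control areas 7.09 ± 1.33, with no overlap (exact permutation p = 0.1, the smallest that 3 against 3 allows). Median cell area was 10124 ± 1389 px in HIRA KO and 14444 ± 2310 px in control areas (exact permutation p = 0.1). Levels are therefore given mainly as CPM, counts per 1000000 gene counts of the same cells, with the negative probes on the same scale. A pixel's size in the tissue was not given in the sources used here, so distances are in pixels.

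Spp1 was sparse, and a small number of cells held much of it. The kept cells carried 6080 Spp1 counts, against 1107 to 3828 for the negative probes and 2904 for their mean. No Spp1 was counted in 45725 cells, 1 count in 2881 cells and 2 counts in 554 cells. The remaining 505 cells, 1.02% of all, held 3 or more counts, and these are called Spp1-high below. They held 34.4% of all Spp1 counts. A negative probe reached 3 counts in 21.9 cells on average and in at most 39 cells, so most Spp1-high cells lay beyond what a negative probe gave. The highest count was 23 for Spp1 in a cell and 5 for any negative probe. Spp1-high cells were present in 47 of 50 fields, with up to 34 in a field. Their number was 69, 30 and 88 in control areas 1, 2 and 3 and 127, 132 and 59 in HIRA KO areas 1, 2 and 3.

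Spp1 was most abundant in biliary-marker cells. These were 525 cells under 15000 px with at least 3 counts of a biliary marker list, which included Sox9, Epcam, Krt19, Krt7, Cd24a, Anxa4 and Cldn4, and more of these than of any other marker list. Spp1 was not in the list. In these cells Spp1 stood at 12358, 3628 and 14891 CPM in control areas 1, 2 and 3, and at 7159, 9950 and 10259 in HIRA KO areas 1, 2 and 3. Control area 2 was the lowest and control area 3 the highest, so the control areas enclosed the HIRA KO areas. The mean was 9707 ± 3942 CPM (SD, n = 6 areas) against 257 ± 58.6 for a negative probe, a ratio of 37.8. At least 1 Spp1 count was found in 50.1% of these cells, against 3.03% for a negative probe.

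Mrc1, Ctsd and Cd74, which the macrophage rule did not use, were 1.82-fold, 2.67-fold and 2.33-fold higher in macrophage-marker cells, each in 6 of 6 areas. Of 10 hepatocyte genes, 9 were higher in hepatocyte-sized cells in 6 of 6 areas, from 1.32-fold for Glul to 2.03-fold for Ttr, whereas Apoe was at 0.978-fold and higher in 1 of 6. The biliary class was checked on epithelial genes that its rule did not use. Clu, which encodes the secreted chaperone clusterin, was 5.75-fold higher in biliary-marker cells than in the other cells under 15000 px. Krt18 and Krt8, the keratins of simple epithelia, were 2.99-fold and 2.66-fold higher, and Cdh1, which encodes E-cadherin, was 2.87-fold higher. Each of these was higher in 6 of 6 areas. Krt80 and Ccl28 were 0.860-fold and 0.774-fold the level of the other cells, both with totals under the highest negative probe. The same ratio for Spp1 was 8.16. The class held 10.2% of all Spp1 counts, and 19.1% of the counts in excess of the negative probe mean. With a demand of 5 marker counts, 120 cells remained with a mean of 12659 ± 4831 CPM. With Clu added to the list, a choice made after the data were seen, the class grew to 2249 cells that held 38.5% of all Spp1 counts at 10101 ± 3432 CPM.

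The other classes had lower means. Cells under 15000 px that met no marker rule had 1719 ± 547 CPM (n = 6 areas), with a negative probe at 394 ± 30.2. These 16914 cells had a median of 56 gene counts, the fewest of any class. They held 31.9% of all Spp1, and 47.1% of the counts in excess of the negative probe mean. Stellate-marker cells, chosen on collagens, Dcn, Pdgfrb and mural genes, had 1126 ± 364, and T/NK-marker cells 1050 ± 434. B/plasma-marker cells ranged from 83.0 in control area 1 to 2523 in control area 3, around a mean of 900 ± 901. Hepatocyte-sized cells, defined as those of at least 15000 px, had 586 ± 126, against 477 ± 40.5 for a negative probe. Endothelial-marker cells had 444 ± 109, macrophage-marker cells 410 ± 127 and neutrophil-marker cells 334 ± 401.

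Of the 8 steps between neighbours in this order, the steps from biliary-marker to unassigned small cells and from these to stellate-marker cells pointed the same way in 6 of 6 areas. Each had an exact sign-flip p of 0.03125, the smallest that 6 areas allow, and an adjusted p of 0.125 over the 8 steps. The other 6 steps did not point the same way in all areas, with exact sign-flip p from 0.0625 to 0.781. Hepatocyte-sized cells exceeded endothelial-marker cells in 5 of 6, by 142 ± 126 CPM. Segmentation can place a transcript in a neighbouring cell, so a level in a class need not be made by it.

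**Figure D1:**
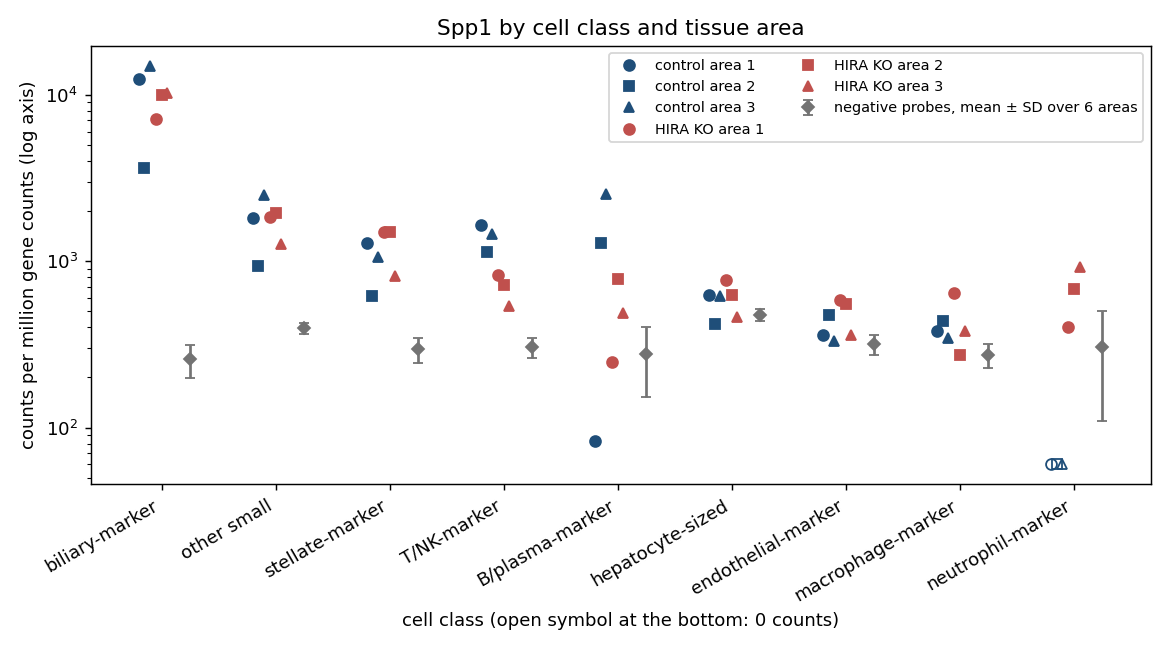
Spp1 CPM (log axis) in each cell class, 1 symbol per tissue area, beside the negative probes (mean ± SD over 6 areas). Biliary-marker cells sit between 3628 and 14891, and hepatocyte-sized, endothelial-marker and macrophage-marker cells lie close to the negative probes.

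Macrophages held little Spp1 beyond the negative probes. The 2559 macrophage-marker cells, chosen on Cd5l, C1qa, C1qb, C1qc, Cd163, Marco, Csf1r, Cd68 and Msr1, carried 132 Spp1 counts. Their levels were 378, 437 and 347 CPM in control areas 1, 2 and 3 and 645, 273 and 379 in HIRA KO areas 1, 2 and 3. The negative probe mean in the same cells was 272 ± 45.6, and Spp1 lay above it in 5 of 6 areas (exact sign-flip p = 0.0625). At least 1 Spp1 count was found in 3.48% of macrophage-marker cells, against 3.18% for a negative probe on average and 4.14% for the highest probe. Of the macrophage-marker cells 10, or 0.391%, were Spp1-high, while a negative probe reached 3 counts in 21.9 of all 49665 kept cells on average. The share of macrophages with any Spp1 was thus near background, although their mean CPM was 1.51 times that of a negative probe. Hepatocyte-sized cells with any Spp1 were likewise 8.78%, against 8.76% for a negative probe.

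The Spp1-high cells carried more of most biliary genes than other cells did, and less of 3 hepatocyte secretory genes and of 3 Kupffer cell and complement genes. With Spp1 itself left out of the total, Clu reached 27185 to 46421 CPM in the Spp1-high cells of the 6 areas and 2112 to 5210 in all other cells, a 9.90-fold ratio of the means. The ranges did not overlap. Sox9, the transcription factor of biliary identity, was 3.66-fold higher and Anxa4, an annexin of bile duct epithelium, 3.12-fold higher. Krt18 was 2.95-fold, Krt8 2.65-fold, Cdh1 2.61-fold, Epcam 2.49-fold, Krt19 2.25-fold, Krt7 2.16-fold and Cd24a 1.75-fold higher. All of these were higher in 6 of 6 areas (exact sign-flip p = 0.03125 each, adjusted p = 0.0398 over 28 genes compared). Cldn4 was higher in 5 of 6 areas.

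The hepatocyte secretory genes Apoa1, Ttr and Gc stood at 0.475, 0.475 and 0.510 times the level of the other cells, each lower in 6 of 6 areas. Ttr was still at 14485 ± 5763 CPM in Spp1-high cells. Apoe, an apolipoprotein gene from the same hepatocyte list, was 1.35-fold higher in 6 of 6 areas, at 17137 ± 2274 against 12734 ± 2578 CPM (exact sign-flip p = 0.03125, adjusted p = 0.0398). The Kupffer cell gene Cd5l stood at 0.292 times and the complement genes C1qa and C1qb at 0.422 and 0.489 times, each lower in 6 of 6 areas. Of the genes linked to lipid- and scar-associated macrophages, Gpnmb, Lgals3 and Ctsd stood at 0.765, 0.712 and 0.818 times and were each lower in 5 of 6 areas, while Cd9, which epithelium also expresses, was 1.81-fold higher in 6 of 6. By class, 91 of the 505 cells were biliary-marker, 56 stellate-marker, 137 hepatocyte-sized and 184 unassigned small cells. Spp1-high cells had a median of 173 ± 21.98 gene counts against 114 ± 23.8 in other cells, and a deeper cell reaches 3 counts more easily.

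Clu was the gene most like Spp1 over cells. The Pearson correlation of log2 counts scaled to 100 per cell had a median of 0.41 over the 6 areas (0.27 to 0.49, with 6801 to 10171 cells per area). The next genes included Fgfr3, a growth factor receptor, and Gas6, a ligand of TAM receptors. They were Anxa4 (0.13), Sox9 (0.10), Fgfr3 (0.10), Gas6 (0.09), Krt8 (0.09), Krt18 (0.08) and Cdh1 (0.07), all weak in these sparse counts. The cells of an area share a section and a field depth, and these correlations are descriptive. At least 3 Clu counts were found in 83.5 ± 3.62% of Spp1-high cells and in 5.05 ± 2.33% of other cells (n = 6 areas, exact sign-flip p = 0.03125). The overlap was uneven, since only 15.2 ± 6.09% of the 3059 cells with at least 3 Clu counts were Spp1-high.

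Protein stains of the same cells were read independently of the RNA. PanCK, an antibody mix against keratins, had a median intensity of 2991 ± 510 in Spp1-high cells and 2783 ± 514 in all other cells. The Spp1-high cells were brighter in 6 of 6 areas, by 0.11 ± 0.08 on the log2 scale (exact sign-flip p = 0.03125, adjusted p = 0.0437 over 7 stain and shape measures). Against other cells under 15000 px, Spp1-high cells of that size were brighter by 0.19 ± 0.09. The B2M membrane stain was 1.70-fold and the DNA stain DAPI 1.67-fold that of all other cells, both higher in 6 of 6 areas. CD3, a T cell protein, was 0.816-fold and lower in 6 of 6. CD45, the stain of white blood cells, was 1.10-fold and higher in 5 of 6 areas against all other cells (exact sign-flip p = 0.0625), and 0.933-fold and higher in 1 of 6 among cells under 15000 px. Among cells under 15000 px the nucleus was larger in Spp1-high cells, 2704 ± 293 px against 2064 ± 137 px, in 6 of 6 areas, whereas the area of the whole cell did not differ beyond its spread, 6797 ± 1054 px against 6875 ± 450 px (exact sign-flip p = 0.812).

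Spp1-high cells lay close to one another. Another Spp1-high cell was within 300 px of 64.8 ± 14.3% of them, whereas 11.7 ± 5.39% of other cells had one that near (n = 6 areas, exact sign-flip p = 0.03125). The median distance to the nearest Spp1-high cell was 200 ± 65.2 px from Spp1-high cells and 1188 ± 414 px from other cells. From other cells it was 1406, 1660 and 1440 px in control areas 1, 2 and 3. In HIRA KO areas 1, 2 and 3 it was 698, 663 and 1258 px, without overlap, and this difference was not tested. In the control field with the most of them, 34 Spp1-high cells and 21 biliary-marker cells of 1126 kept cells lay mostly along one diagonal line. In the matching HIRA KO field, 30 Spp1-high and 16 biliary-marker cells of 1320 were gathered mostly at one side.

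**Figure D2:**
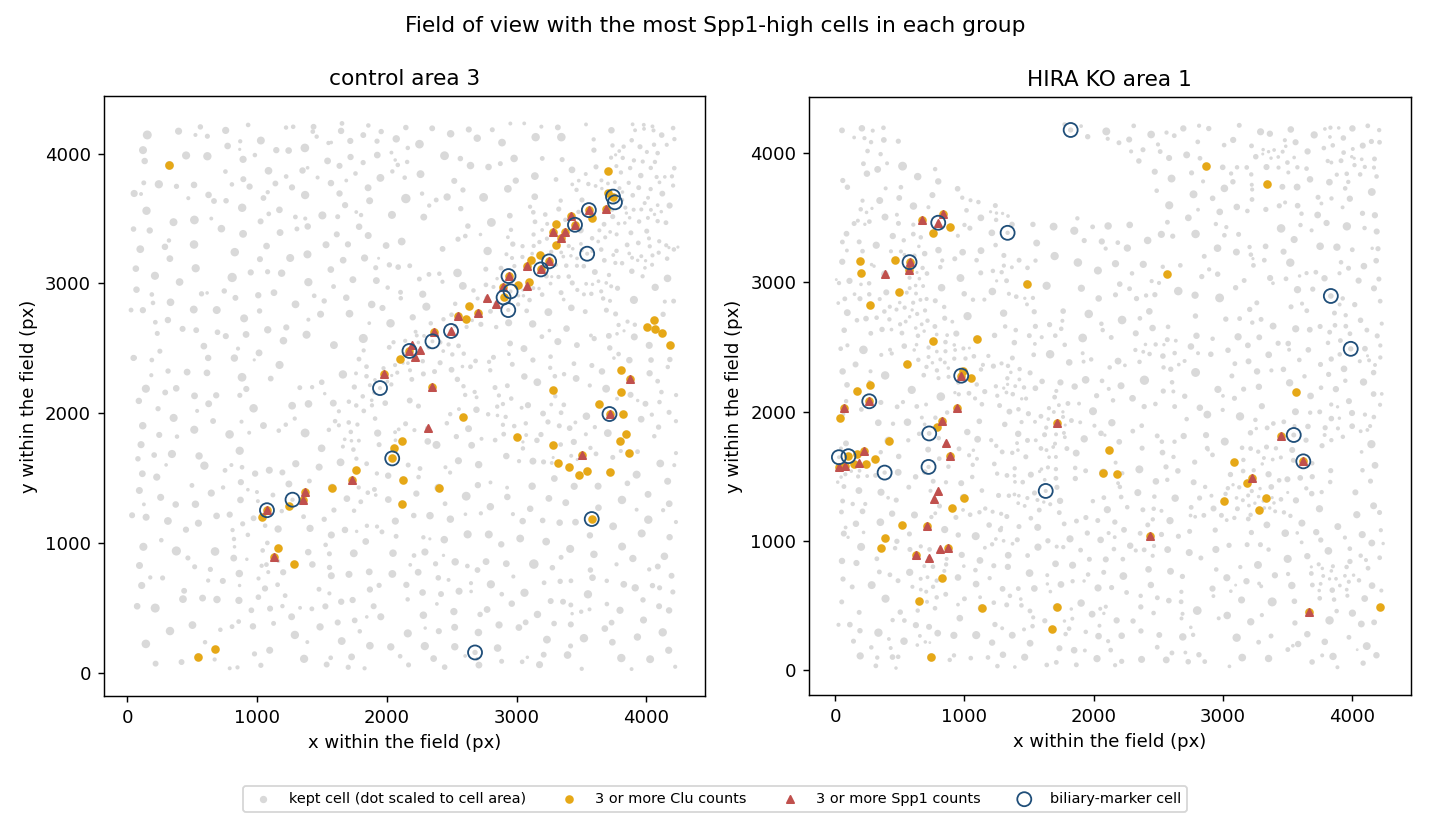
Kept cells in the field of view with the most Spp1-high cells of each group, by position in pixels. Red triangles are the cells with at least 3 Spp1 counts (34 in the control and 30 in the HIRA KO field), yellow points cells with at least 3 Clu counts (77 and 69), and blue rings biliary-marker cells (21 and 16).

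The surroundings of Spp1-high cells differed from the rest of the tissue in their cell classes. Among 6145 other cells within 300 px, 2.97 ± 0.718% were biliary-marker cells, against 0.549 ± 0.327% of 34547 cells beyond 600 px. Stellate-marker cells made up 12.7 ± 3.05% near and 7.23 ± 1.84% far. Unassigned small cells rose from 31.3 ± 5.14% far to 43.8 ± 5.66% near. Hepatocyte-sized cells fell from 46.2 ± 8.20% far to 28.3 ± 5.34% near, and macrophage-marker cells from 5.67 ± 1.88% to 3.23 ± 1.33%. Endothelial-marker cells were 2.44 ± 0.993% near and 3.54 ± 1.16% far. Each of these 6 differences had the same sign in 6 of 6 areas (exact sign-flip p = 0.03125, adjusted p = 0.0469 over 9 classes). T/NK-marker cells were at 2.99 ± 0.926% near and 2.43 ± 1.25% far (adjusted exact sign-flip p = 0.0804).

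In hepatocyte-sized cells Spp1 was higher the nearer they lay to biliary cells. Distances to biliary-marker cells come first, since these cells were chosen without Spp1. Within 300 px, Spp1 in hepatocyte-sized cells was 2865, 929 and 1540 CPM in control areas 1, 2 and 3 and 1196, 885 and 1164 in HIRA KO areas 1, 2 and 3. Beyond 600 px it was 397, 349 and 483 in the control areas and 617, 514 and 337 in the HIRA KO areas. The near level exceeded the far level in 6 of 6 areas, and no near value reached down to a far value. The log2 ratio was 1.58 ± 0.74 (n = 6 areas, exact sign-flip p = 0.03125), from 2208 near and 14099 far cells. The mean of the negative probes had a log2 ratio of -0.12 ± 0.13. Spp1-high cells of at least 15000 px were kept in these values.

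Distances to Spp1-high cells gave the same fall, with the Spp1-high cells themselves left out. These reference cells were chosen for Spp1, which favours higher Spp1 in the cells beside them. Spp1 in hepatocyte-sized cells was 1522 ± 943 CPM at up to 150 px, 946 ± 492 from 150 to 300 px, 609 ± 176 from 300 to 600 px, 404 ± 62.2 from 600 to 1200 px and 343 ± 67.3 beyond. The negative probes stayed between 413 ± 45.9 and 501 ± 58.8 in these bins. Within 150 px the areas ran from 633 in control area 2 to 3316 in control area 1, so the height of the rise differed greatly between areas. The near against far log2 ratio was 1.45 ± 0.81, above 0 in 6 of 6 areas (exact sign-flip p = 0.03125). Beyond 600 px the Spp1 level was 361 ± 60.6 and the negative probe mean 478 ± 45.1. Cells with 3 or more Spp1 counts were left out here, a selection on Spp1 and not on the probes. By distance from biliary-marker cells, without that selection, Spp1 was 488 ± 137 and a negative probe 480 ± 46.6 from 600 to 1200 px. Beyond 1200 px from biliary-marker cells Spp1 was 392 ± 69.8 and a negative probe 485 ± 49.3. Why Spp1 lay below the probes far away was not tested.

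The gradient remained when large cells that met the biliary or macrophage marker rule were left out, with a log2 ratio of 1.38 ± 0.82. It was 1.41 ± 0.88 in cells of at least 20000 px. Whether these counts were made in the large cells or were assigned to them from adjoining duct cells was not tested.

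**Figure D3:**
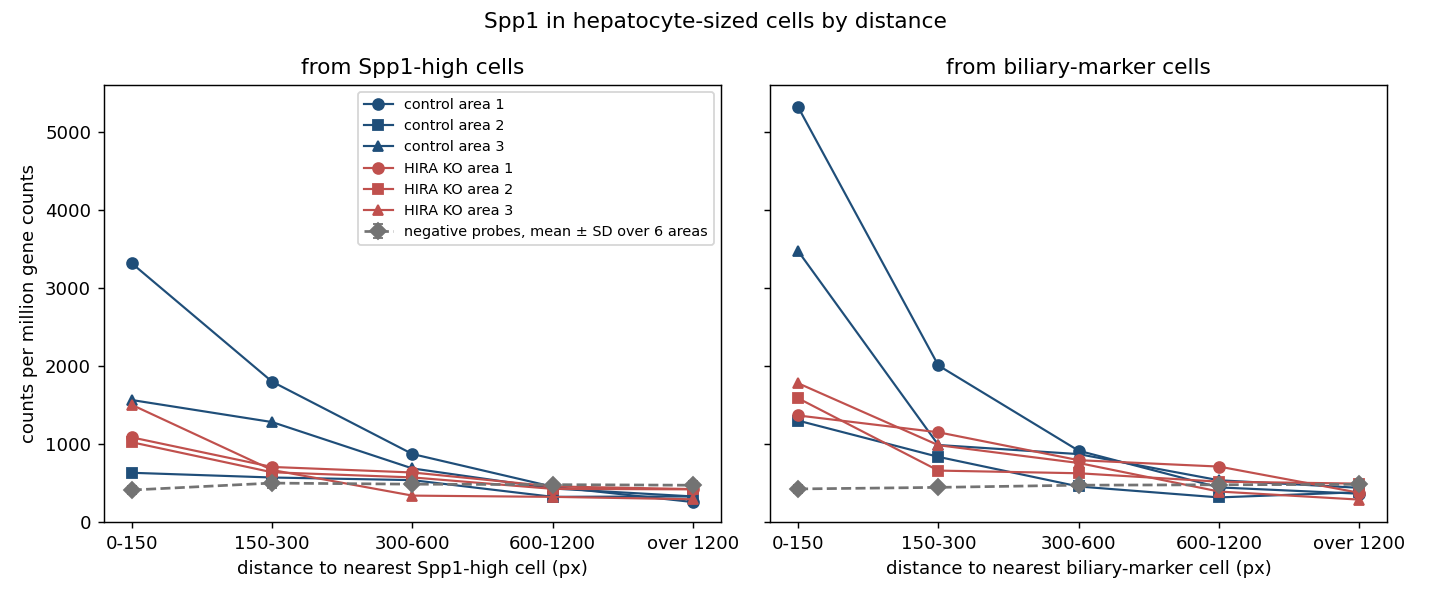
Spp1 CPM in hepatocyte-sized cells by distance (px) to the nearest Spp1-high cell (left) or biliary-marker cell (right), 1 line per tissue area, with the negative probes as mean ± SD over 6 areas. The lines start between 633 and 5317 within 150 px and approach the negative probes beyond 600 px in both panels.

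Stellate-marker cells showed the same fall. Spp1-high cells were chosen for Spp1, which favours ratios above 0 by distance from them, here and in macrophage-marker cells. By distance from biliary-marker cells, stellate-marker cells had 3673 ± 1893 CPM at up to 150 px and 344 ± 236 beyond 1200 px. Near Spp1-high cells they had 2061 ± 942 CPM and beyond 600 px 407 ± 188, a log2 ratio of 2.32 ± 1.07 that was above 0 in 6 of 6 areas (exact sign-flip p = 0.03125). In macrophage-marker cells the near value rested on 20 counts in 204 cells and the far value on 47 counts in 1954 cells. The near level was 1146 ± 732 CPM and the far level 186 ± 42, with a negative probe at 225 near and 272 far. The log2 ratio was 2.56 ± 1.26 (exact sign-flip p = 0.03125), and 2.21 ± 1.79 by distance from biliary-marker cells (exact sign-flip p = 0.0625). With so few counts an area's value can turn on 1 transcript.

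Across the panel, Spp1 had the steepest fall with distance from biliary-marker cells. In all cells other than biliary-marker cells, its log2 ratio of near over far was 2.23 ± 0.76, rank 1 of 757 genes with more counts than the highest negative probe. Clu was rank 2 at 1.49 ± 0.58. Gsn, Acta2, Gas6, Dpt and Tagln followed at 0.89, 0.67, 0.63, 0.63 and 0.59. Acta2 and Tagln are smooth muscle genes, and Dpt encodes a matrix protein of fibroblasts. In hepatocyte-sized cells alone the order again began with Spp1 (1.58), Clu (1.10 ± 0.48) and Gsn (0.52 ± 0.35). Spp1-high cells outside the biliary class were kept in both orders. Of the 505, only 91 were biliary-marker, while 137 were hepatocyte-sized and 184 unassigned small cells. Of the 757 genes, 5.28% were higher near biliary-marker cells in all 6 areas and 6.74% were lower in all 6, counted over all cells outside that class. In hepatocyte-sized cells alone these shares were 3.3% and 3.17%.

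Receptors for osteopontin had small log2 ratios by distance from biliary-marker cells. Of 11 listed receptor genes, 9 are on the panel and 7 exceeded the highest negative probe (Itgb1, Itgb5, Itgb6, Itgb8, Itga5, Itga8 and Itga9). Over all cells outside the biliary class, 0 of 7 were higher near in all 6 areas, and their median log2 ratio was -0.0035. In hepatocyte-sized cells it was again 0 of 7. Shares of 5.28% and 3.3% over the 757 genes give a list of 7 few or no such genes. The counts of 0 therefore say nothing particular about receptors. Itgav, the alpha chain of the classical osteopontin receptor, had 2862 counts, fewer than the highest negative probe, and Cd44 was listed at 0 counts in every cell, so neither could be assessed. With Spp1-high cells as the reference, 8.85% of the 757 genes were higher and 6.21% lower near in all 6 areas over all other cells, and 4.49% and 1.85% in hepatocyte-sized cells. There Itgb5 and Itgb6 were higher in all 6 over all other cells, by 0.24 ± 0.11 and 0.18 ± 0.16, and 1 of the 7 receptors was in hepatocyte-sized cells. All 6 further biliary genes above the highest negative probe (Clu, Krt8, Krt18, Cdh1, Sox4 and Cxcl16) were higher near Spp1-high cells in all 6 areas, from 0.16 ± 0.10 for Cxcl16 to 1.84 ± 0.73 for Clu, and 3 of the 6 were in hepatocyte-sized cells. The cells outside the Spp1-high set still included biliary-marker cells, 2.97% of near and 0.549% of far cells, which favours higher biliary genes near. Near biliary-marker cells, with that class left out, only Clu and Cdh1 of the 6 genes were higher in all 6 areas over all other cells. The same count held in hepatocyte-sized cells, where Cxcl16 was lower in all 6.

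Among proteases, Mmp9 was lower near biliary-marker cells in all 6 areas, with a log2 ratio of -0.15 ± 0.09. So were 6.74% of the 757 genes. Mmp2 and Mmp14 were not on one side in all 6. Of the regulators listed as inducers of Spp1, 0 of 11 were higher near biliary-marker cells in all 6 areas, and 3 were near Spp1-high cells. These 3 were Sox9 (0.65 ± 0.29), Jag1, a Notch ligand (0.29 ± 0.17), and Jun (0.29 ± 0.12). Sox9 is also in the biliary marker list, and biliary-marker cells were among the cells compared. Of 5 matrix partners, 0 were higher in all 6 areas near biliary-marker cells. Col1a1 and Sparcl1 were so near Spp1-high cells, by 0.58 ± 0.22 and 0.34 ± 0.25. Near Spp1-high cells, 8.85% of the 757 genes were higher in all 6 areas over all other cells. As 5.28% of the 757 genes were higher near biliary-marker cells in all 6 areas, 0 of 11 and 0 of 5 say nothing particular about these lists. Of 8 genes linked to lipid- and scar-associated macrophages, Cd9 (0.29 ± 0.17), Cd63 (0.26 ± 0.16) and Fabp5 (0.20 ± 0.04) were higher near biliary-marker cells in all 6 areas, and Gpnmb (0.05) and Lgals3 (-0.04) were not.

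**Figure D4:**
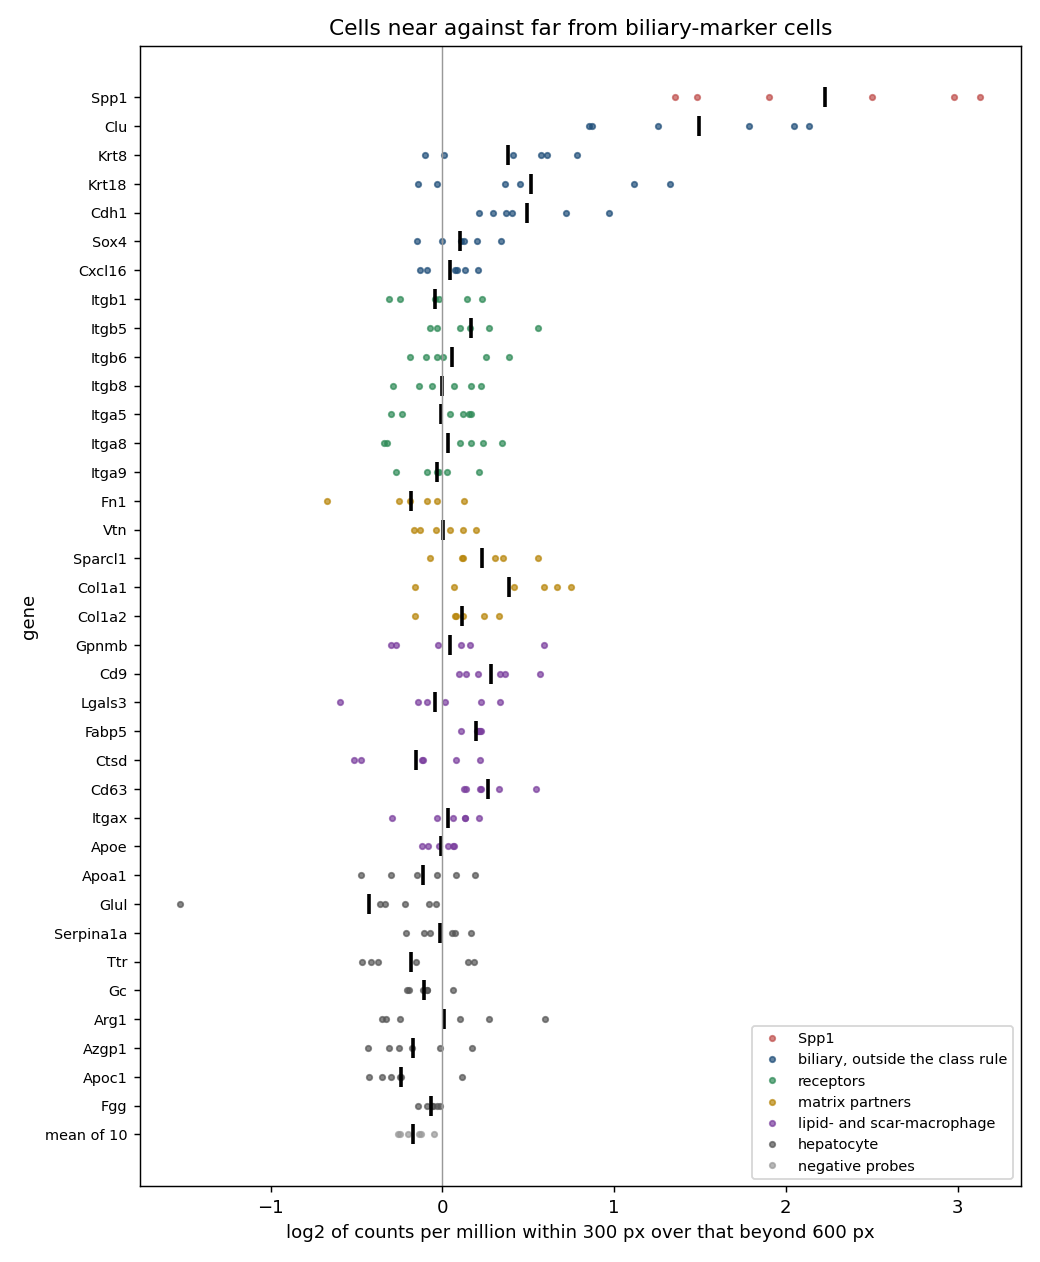
Log2 ratio of CPM within 300 px of a biliary-marker cell over that beyond 600 px, in all cells outside the biliary class; points are the 6 tissue areas and bars their mean. Spp1 lies at 2.23 and Clu at 1.49, while the receptor genes scatter around 0.

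Spp1 transcripts were found mostly inside segmented cells. Outside cells lay 5.43 ± 1.59% of Spp1 transcripts, 6.84 ± 1.26% of all gene transcripts and 9.94 ± 1.64% of negative probe reads (n = 6 areas). The difference from all genes, -1.42 ± 2.36 percentage points, did not exceed the spread between areas (exact sign-flip p = 0.219). Of the Spp1 transcripts outside cells, 37.1 ± 16% lay within 300 px of an Spp1-high cell, against 10.6 ± 4.94% of all gene transcripts outside cells and 22.8 ± 10.2% of those of Clu. Both differences had the same sign in 6 of 6 areas. The reference cells were chosen for Spp1 counts inside them, which favours a higher Spp1 share near them. This comparison therefore cannot show how Spp1 transcripts outside cells are placed. Inside cells, 47.5 ± 3.63% of Spp1 transcripts were nuclear, close to 48.1 ± 3.84% of all genes, and 21.98 ± 1.06% lay in the membrane compartment, above 15.8 ± 2.77% in 6 of 6 areas. Negative probe reads were nuclear in 28.6 ± 2.19%, and 21.6 ± 2.29% lay in the membrane compartment. Over the 24 comparisons of transcript position, no adjusted p was below 0.0625.

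The comparison of HIRA KO with control areas asked whether loss of HIRA in hepatocytes changed Spp1. Over all kept cells Spp1 stood at 950, 523 and 1106 CPM in control areas 1, 2 and 3 and at 1097, 1056 and 616 in HIRA KO areas 1, 2 and 3. The groups overlapped, and each held 1 low area. Within slide rows HIRA KO was higher in rows 1 and 2 and lower in row 3. The log2 fold change on area sums was 0.20 ± 0.25 (SE, edgeR's quasi-likelihood test, adjusted p = 0.869), and 0.2% of the 998 genes tested were called. With the slide row as a block it was 0.24 ± 0.22 (edgeR adjusted p = 0.618), with 17 genes called in place of 2. Per megapixel of cell area Spp1 was 5.83 ± 1.19 in control and 9.88 ± 2.56 in HIRA KO areas (exact permutation p = 0.1), and the negative probe mean moved in the same direction, from 2.99 ± 0.755 to 4.58 ± 0.295 (exact permutation p = 0.1).

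In hepatocyte-sized cells the levels were 623, 420 and 614 CPM in control areas 1, 2 and 3 and 767, 628 and 462 in HIRA KO areas 1, 2 and 3. The ranges overlapped. The same size limit set this class in both groups, but HIRA KO cells were smaller (median 10124 ± 1389 against 14444 ± 2310 px). It held 4038, 3680 and 3106 of 8138, 6801 and 7008 kept cells in control areas 1, 2 and 3. In HIRA KO areas 1, 2 and 3 it held 3100, 3805 and 3113 of 10171, 10111 and 7436. The limit thus took a smaller share of HIRA KO cells. A limit adjusted to the cell size of each group was not tested. The log2 fold change was 0.28 ± 0.17 (SE, edgeR adjusted p = 0.661), with 0.1% of 998 genes called. With the slide row as a block it was 0.30 ± 0.10 (edgeR adjusted p = 0.0756), with 44 genes called in place of 1. In biliary-marker cells the log2 fold change was -0.20 ± 0.31 (edgeR adjusted p = 0.883), with 0% of 165 genes called. By edgeR 13 of the 165 had an unadjusted p under 0.05, DESeq2 called 0, and the row block called 2 with Spp1 at -0.09 ± 0.29 (edgeR adjusted p = 0.956). In macrophage-marker cells it was 0.22 ± 0.32 (edgeR adjusted p = 0.936), with 0.101% of 988 genes called. The row block gave 0.18 ± 0.31 (edgeR adjusted p = 0.903), with 3 genes called in place of 1. The T/NK-marker cells were 1 of 2 classes whose groups did not overlap, with 1640, 1127 and 1452 CPM in control areas 1, 2 and 3 and 830, 717 and 536 in HIRA KO areas 1, 2 and 3 (exact permutation p = 0.1, the smallest possible, 9 classes compared). These values rest on 136 counts. Neutrophil-marker cells were the other, with 9 counts in HIRA KO areas and 0 in the 15, 21 and 24 such cells of control areas 1, 2 and 3.

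**Figure D5:**
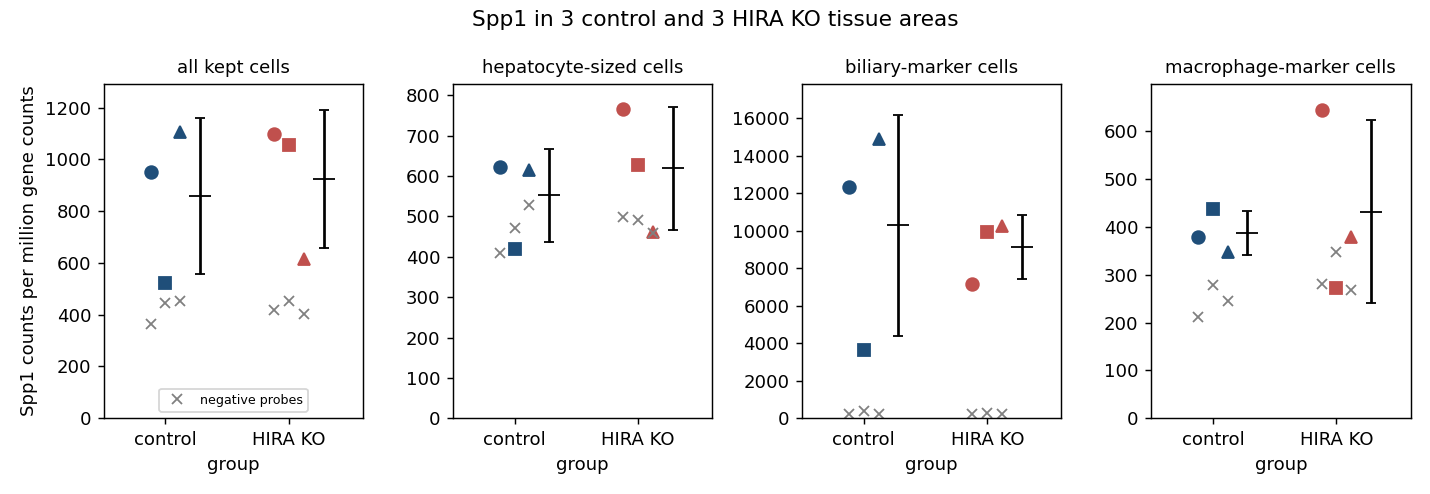
Spp1 CPM in control and HIRA KO tissue areas for 4 cell populations; symbols are areas (circle, square and triangle for areas 1, 2 and 3), bars mean ± SD of 3, and grey crosses the negative probes of the same cells. The groups overlap in each panel.

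The share of Spp1-high cells was 0.848%, 0.441% and 1.26% in control areas 1, 2 and 3 and 1.25%, 1.31% and 0.793% in HIRA KO areas 1, 2 and 3. The groups overlapped (0.848 ± 0.407% against 1.12 ± 0.281%, exact permutation p = 0.6). The share with 2 or more counts was 1.74 ± 0.673% in control and 2.36 ± 0.640% in HIRA KO areas. With each cell thinned to 50 gene counts, the share with 2 or more Spp1 counts was 0.433%, 0.273% and 1.21% in the control and 0.837%, 0.917% and 0.637% in the HIRA KO areas, with 4248 control and 4135 HIRA KO cells left out as shallower. Cells with 10 or more counts numbered 6, with 2 in each HIRA KO area and 0 in the control areas (exact permutation p = 0.1). The log2 ratio of near over far Spp1 in hepatocyte-sized cells was 1.88 ± 0.97 in control and 1.02 ± 0.40 in HIRA KO areas (exact permutation p = 0.2, without pairing). Within slide rows it was lower in HIRA KO in 3 of 3, from 2.81 to 0.81 in row 1, 0.88 to 0.76 in row 2 and 1.95 to 1.48 in row 3, and 3 pairs are too few for an exact paired test to pass the threshold. In macrophage-marker cells the ratio was 3.70 ± 0.23 in control and 1.43 ± 0.24 in HIRA KO areas, with no overlap (exact permutation p = 0.1, the smallest possible). The near values of control areas 1, 2 and 3 came from 12, 8 and 23 cells. Both ratios use Spp1-high cells as the reference. For the hepatocyte-sized ratio, the size limit also took a smaller share of HIRA KO cells. Within 150 px of biliary-marker cells, macrophage-marker cells had 0, 8257 and 2822 CPM in control areas 1, 2 and 3. HIRA KO areas 1, 2 and 3 had 2379, 0 and 423, so the groups overlapped there. They also overlapped from 150 to 300 px.

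In the model without the slide row, 1 of the genes listed with Spp1 was called with genotype over all cells. All values of this paragraph come from that model. With the row as a block, 17 genes were called over all cells and 44 in hepatocyte-sized cells, and the listed genes were not looked up there. Col1a1, the alpha chain of fibrillar collagen I and a matrix partner, rose by a log2 fold change of 0.74 ± 0.12 (edgeR adjusted p = 0.0272). None of the 7 receptors, 3 proteases, 11 inducers, 8 lipid- and scar-associated macrophage genes and 11 biliary genes above the highest negative probe passed the test over all cells, in hepatocyte-sized cells or in macrophage-marker cells. At the called shares of 0.2%, 0.1% and 0.101% of all genes, lists of this size would hold few or no calls, so these counts say nothing particular about the lists. Clu had a log2 fold change of 0.55 ± 0.29 over all cells (edgeR adjusted p = 0.676). Gpnmb was at 1.21 ± 0.40 in macrophage-marker cells (edgeR adjusted p = 0.650), and Vtn, which encodes vitronectin, at 0.83 ± 0.20 over all cells (edgeR adjusted p = 0.251).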

How the data were processed

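The CosMx tables hold, per the file headers, the counts of 1000 gene targets and 10 negative probes per segmented cell, the mean stain intensity, size and position of each cell, and the position of each transcript. The authors' service provider made the raw counts and the intensity values, and the segmentation software was not given in the sources used here. The deposited values were not normalised or batch-corrected.

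Cells with at least 20 gene counts and an area of up to 5 times the geometric mean (10967 px) were kept, as in the study's methods. Samples were grouped by the labels' genotype, and cells were summed per tissue area. Cell classes were set by marker counts and a size limit of 15000 px. No clustering or doublet caller was run. Genotype was tested on area sums of all genes with edgeR 4.0.16 (TMM, filterByExpr, quasi-likelihood, Benjamini-Hochberg at 0.05) in R 4.3.3, and DESeq2 1.42.0 was an alternative. Other tests were two-sided exact permutations of 3 against 3 areas or exact sign flips over 6 areas, in Python 3.11.15 with scipy 1.17.1, without adjustment unless stated. Near and far ratios had 0.5 counts added on both sides. The edgeR step and exact tests were tested on simulated data.

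The limit for an Spp1-high cell was first set at 10 counts. That left 6 cells and no such cell in any control area, so 3 counts was chosen after the counts were seen. Distance in hepatocyte-sized cells and PanCK were also run with limits of 2 and 5, and distances also from biliary-marker cells. Genes named were Spp1, members of 6 lists (receptors, proteases, inducers, matrix partners, lipid- and scar-associated macrophage genes and further biliary genes) above the highest negative probe, and the 8 genes most correlated with Spp1. The members and lists were chosen with earlier results of these data known. Gsn, Dpt, Acta2 and Tagln were named after their ranks were seen, and the T/NK-marker and neutrophil-marker comparisons after their values were. Genes compared between Spp1-high and other cells were picked from marker lists.

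Deviations from the group means correlated at 0.539, 0.431 and 0.357 between the 2 areas of slide rows 1, 2 and 3, so the row pairs the areas. P-values measure the spread between areas of 1 slide. Cell outlines were not used here. One marker gene of the biliary list is not reported here.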

Additional observations from a re-analysis of the deposited data

How the results depend on the processing

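Genotype effects on Spp1 stayed below the threshold under every setting that gave a value. Over all cells, 5 other settings gave log2 fold changes of 0.11 to 0.24, and cells under 15000 px alone -0.026. Leaving out an area gave -0.078 (without control area 2) to 0.45. In hepatocyte-sized cells 9 settings gave 0.17 to 0.36 with edgeR adjusted p no lower than 0.0756, the slide row as a replicate block, and leaving out an area gave 0.09 to 0.42. DESeq2 gave no adjusted p there. In biliary-marker cells 8 settings gave -0.27 to -0.07 and leaving out an area -0.52 to 0.13, with the sign turned without control area 3. In macrophage-marker cells 5 settings gave 0.14 to 0.23, a rule of 2 marker counts -0.073, and leaving out an area -0.10 to 0.46, negative without HIRA KO area 1. With 5 marker counts Spp1 did not pass the filter. The replicate block changed no call on Spp1. Counts of genes called moved more, from 2 to 10 with DESeq2 and 17 with the block over all cells, from 1 to 15 and 44 in hepatocyte-sized cells, from 1 to 3 and 3 in macrophage-marker cells, and from 0 to 0 and 2 in biliary-marker cells.

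The near against far ratio of Spp1 in hepatocyte-sized cells was 1.08 to 1.96 under 9 settings, with exact sign-flip p = 0.03125 in each, and 1.17 to 1.58 with an area left out, where 5 areas allow no exact p under 0.0625. Except for distance from biliary-marker cells, these settings used reference cells chosen for Spp1, which favours a ratio above 0. With the negative probe mean subtracted, the near level exceeded the far level by 707 ± 620 CPM. The genotype difference of the ratio was -0.81 to -0.48 under 4 settings and -1.36 to -0.40 with an area left out. In macrophage-marker cells the ratio lost its call at 150 px (2.65) and by distance from biliary-marker cells (2.21), both with exact sign-flip p = 0.0625, and ran from 2.31 to 2.84 with an area left out. PanCK differed by 0.07 to 0.26 under 5 settings, including 0.13 in cells of 100 to 300 gene counts, and by 0.085 to 0.12 with an area left out. The share outside cells was lower than that of all genes within 300 px of Spp1-high cells (-2.33 percentage points, exact sign-flip p = 0.03125), but those cells were chosen for Spp1 inside them, so this value says nothing of transcript position. Over all tissue it ran from -2.22 to -0.78 with an area left out. The share of cells with at least 10 Spp1 counts was higher in HIRA KO by 0.02 percentage points with any area left out (0.0197 to 0.0233), and 8 other settings gave the same direction, none with an exact permutation p under 0.1. The 10-count limit set first left no Spp1-high cell in control areas, so distances and PanCK rest on 3 counts, chosen after seeing the data, as were the limit of 2, the negative subtraction and the 100 to 300 count range. A limit of 20 counts left 1 cell and was not run for distances or PanCK. The causes of these shifts were not tested. Depth limits the levels in hepatocyte-sized, endothelial-marker and macrophage-marker cells, where Spp1 is near the negative probes, which differ among themselves from 1107 to 3828 counts.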
